A study of Mus musculus with 2 samples.

Results

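The nuclear lamina of C2C12 myoblasts was examined through the transcription of the genes that build it: the lamins Lmna, Lmnb1 and Lmnb2, the LEM domain genes Emd, Tmpo, Lemd2 and Lemd3, the lamin B receptor gene Lbr, and the SUN genes Sun1 and Sun2. These 10 genes were chosen by symbol, and all of their RefSeq entries in the deposited table of gene activity were used, which gave 15 entries among 24165 entries of 20128 gene symbols. The mouse myoblast line C2C12 is an established model of muscle precursors, which can be made to fuse into fibres. Global run-on sequencing (GRO-seq) was performed on nuclei for 2 replicate libraries of cells that were grown in medium with serum and received no treatment, and no genotype or condition was compared. In this assay, polymerases already engaged on a gene resume transcription in isolated nuclei and add bromouridine, by which the new RNA is then pulled down for sequencing. The measurement is thus of transcription and not of RNA level. Gene activity is the density of sense reads from 1 kb downstream of the transcription start to the transcript end, per kilobase of mappable bases and scaled to the number of reads (RPKmM). The authors pooled both libraries, so each entry has 1 value, and neither a standard deviation nor a test between replicates could be had. The table holds neither the depth of each library nor the mappable length behind each value, and no counting error was computed. All comparisons below are descriptions of the pooled libraries.

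Lamins are intermediate filament proteins of the nucleus that polymerise into a meshwork under the inner nuclear membrane. B-type lamins remain farnesylated and bound to the membrane, while lamin A is made from a farnesylated precursor that is cleaved. Emerin, MAN1, LEM2, most LAP2 isoforms and the lamin B receptor span the inner membrane and contact chromatin, while LAP2 alpha lacks a membrane anchor and is found in the nuclear interior. SUN proteins reach across the envelope to nesprins of the outer membrane, which attach to the cytoskeleton. Mutations in LMNA and EMD cause muscular dystrophies, so that this group of proteins is of particular interest in muscle.

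The labelled cell type was checked first. The myoblast markers Myod1, Myf5, Cdh15 and Des were all active, from 2.39 RPKmM for Myod1 to 72.5 for Des, whereas markers of leukocytes (Ptprc), epithelium (Epcam), endothelium (Cdh5), neurons (Neurod1), fat (Adipoq) and liver (Alb) were all inactive. All 5 genes of differentiated muscle on the list (Myog, Ckm, Myh1, Acta1 and Mymk) were also marked active, from 0.20 for Ckm to 6.85 for Acta1. Myog, at 2.39, equalled Myod1, and Acta1 exceeded both Myod1 and Myf5 (5.03). These markers thus do not separate myoblasts from cells that had begun to differentiate. The part of such cells in the activities of the lamina genes was not tested.

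Promoter sequences are shown for the most active lamin gene, the most active LEM domain gene, the more active SUN gene and Lbr, the gene of lowest activity with a promoter in the sequence table. They are from RefSeq on build GRCm38.p6 and hold the 250 bases before an annotated start, read 5′ to 3′ in the direction of transcription. Capitals mark CCAAT (the CCAAT box) and GGGCGG (the GC box), on either strand.
Lmna, chr3:88503353-88503602, minus strand: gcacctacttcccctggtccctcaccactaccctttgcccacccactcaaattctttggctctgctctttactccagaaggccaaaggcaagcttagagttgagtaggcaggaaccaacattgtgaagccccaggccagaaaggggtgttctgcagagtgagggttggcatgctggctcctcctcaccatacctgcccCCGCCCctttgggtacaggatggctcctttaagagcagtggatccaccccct
Tmpo, chr10:91171620-91171869, minus strand: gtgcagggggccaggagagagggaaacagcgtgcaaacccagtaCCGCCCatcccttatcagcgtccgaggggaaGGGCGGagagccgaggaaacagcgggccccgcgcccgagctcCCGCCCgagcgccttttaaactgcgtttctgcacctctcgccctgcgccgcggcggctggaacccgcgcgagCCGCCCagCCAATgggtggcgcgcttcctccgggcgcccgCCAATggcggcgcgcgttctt
Sun2, chr15:79742537-79742786, minus strand: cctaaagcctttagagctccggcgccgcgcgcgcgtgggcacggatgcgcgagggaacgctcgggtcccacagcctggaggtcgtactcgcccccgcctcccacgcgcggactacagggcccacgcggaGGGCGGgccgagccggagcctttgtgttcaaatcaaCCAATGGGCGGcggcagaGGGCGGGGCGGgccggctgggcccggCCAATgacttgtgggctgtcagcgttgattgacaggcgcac
Lbr, chr1:181842402-181842651, minus strand: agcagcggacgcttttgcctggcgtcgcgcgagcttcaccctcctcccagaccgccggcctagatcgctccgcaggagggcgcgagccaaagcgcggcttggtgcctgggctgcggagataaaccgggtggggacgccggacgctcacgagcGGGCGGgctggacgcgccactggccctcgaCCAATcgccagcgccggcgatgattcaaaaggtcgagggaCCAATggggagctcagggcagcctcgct
The Tmpo and Sun2 sequences each held 2 CCAAT and 4 GGGCGG matches, in Sun2 with overlaps between GGGCGG matches, and that of Lbr held 2 and 1. The Lmna sequence had 1 GGGCGG match and no CCAAT. It was also low in CpG, with an observed to expected ratio of 0.0519, against 1.02 for Tmpo, 0.995 for Sun2 and 1.03 for Lbr. A 2nd annotated promoter of Lmna had a CpG ratio of 0.234 and a single CCAAT match. The sequence table held only these 2 promoters of Lmna, whereas its 4 coding transcripts in the GENCODE vM1 annotation differ in their starts.

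All 15 entries of the lamina genes were active, where 70.2% of all entries in the table were, and all 10 genes had an active entry, where 68.7% of gene symbols did. Their activities ran from 1.84 RPKmM for Lemd2 to 23.24 for an entry of Tmpo, with a median of 4.68 over entries and 3.90 over genes. The other 16942 active entries had a median of 0.870 and lay between 0.220 and 1.99 at the quartiles, so that the median of the lamina entries was 5.38 times theirs. Each of the 15 entries lay above that median, and all but Lemd2 lay above the upper quartile. Activities reached 1 or more in 15 of the 15 entries against 46.0% of all active entries, 2 or more in 14 against 25.0%, and 10 or more in 5 against 2.89%. By the median entry of each gene, 10 of the 10 genes were at 1 or more against 45.7% of active gene symbols, 9 at 2 or more against 24.6%, and 2 at 10 or more against 2.83%. The 5 entries at 10 or above belong to only 2 genes, Tmpo and Lmna, and entries of a gene that overlap share reads, so that they are not independent.

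**Figure D1:**
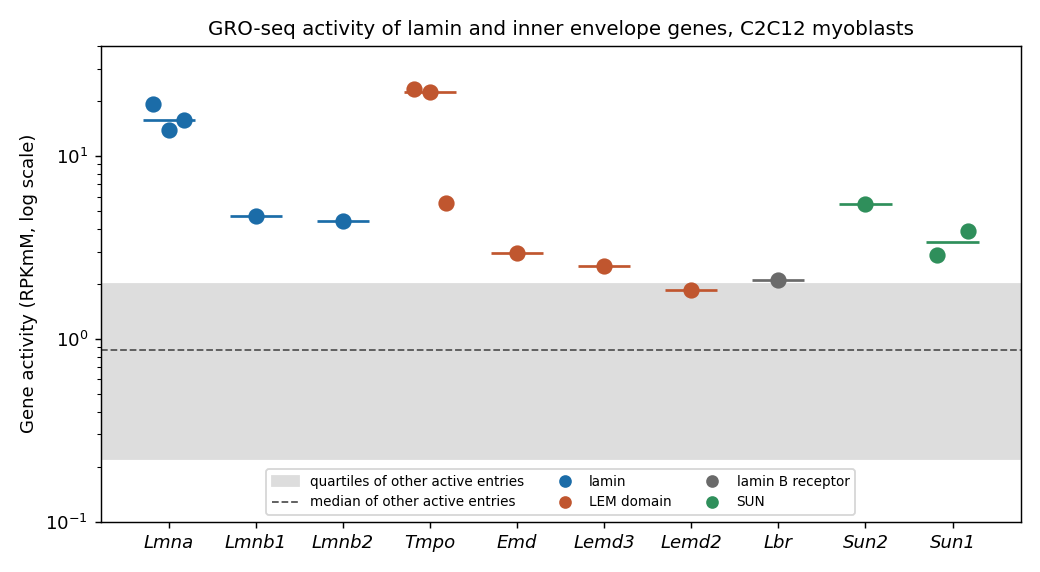
Gene activity in RPKmM on a log scale for each RefSeq entry (points) of the 10 lamina genes, coloured by role, with the median of each gene as a bar. The dashed line is the median (0.870) and the grey band the quartiles (0.220 to 1.99) of the other active entries, and Lemd2 at 1.84 is the only entry inside the band.

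**Figure D2:**
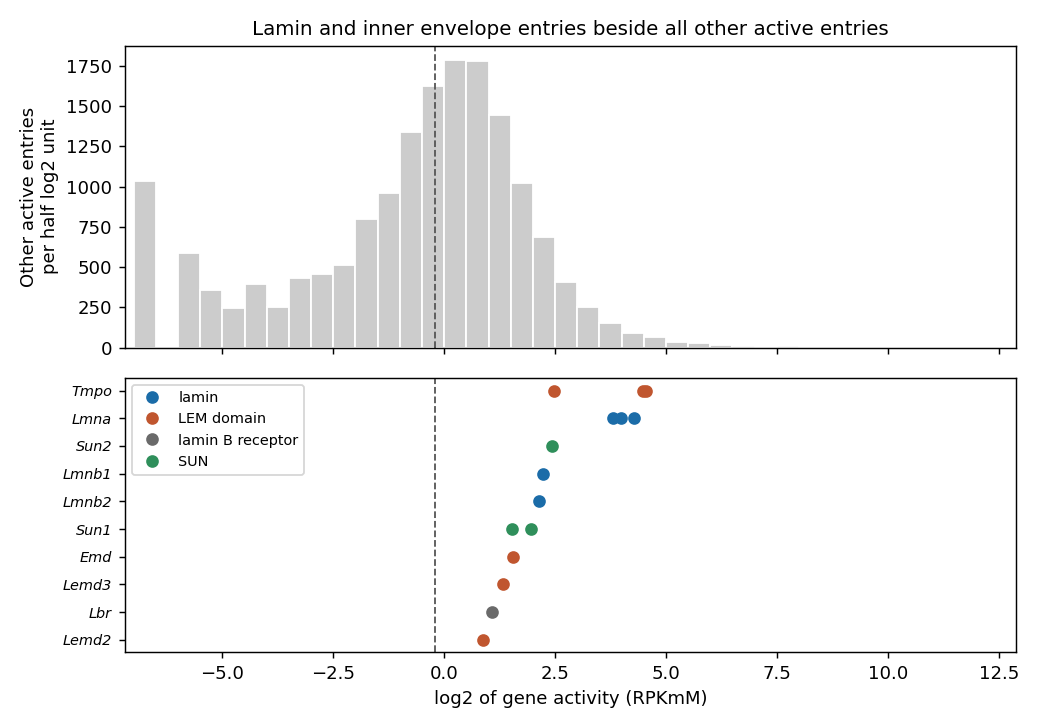
Top, the number of other active entries per interval of log2 activity, without entries listed at 0. Bottom, the log2 activity of the entries of each lamina gene, with genes in order of their median activity from Tmpo to Lemd2. The dashed line is the median of the other active entries, and every point lies to its right.

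Among the lamins, Lmna was the most active. Its 3 entries were listed at 19.27 RPKmM (NM_001002011), 15.73 (NM_001111102) and 13.95 (NM_019390), which places them above 98.8%, 98.4% and 98.1% of the other active entries. Lmnb1 (NM_010721) had 4.68 and Lmnb2 (NM_010722) had 4.42, above 91.7% and 91.0%. In these pooled values the A-type gene thus lay apart from both B-type genes, while the B-type genes lay close together. The median entry of Lmna was 3.36 times Lmnb1 and 3.56 times Lmnb2, and its lowest entry was still 2.98 times Lmnb1 and 3.16 times Lmnb2. Lmnb1 was 1.06 times Lmnb2, a difference that cannot be judged without replicates.

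On mm9, the build of the deposited table, GENCODE vM1 places Lmna on chromosome 3, minus strand, from 88285070 to 88313878. The 4 coding transcripts annotated there differ in their starts and ends, from 7204 to 22188 bp in length. Transcripts that share both their start and their end appear only once, so that the 3 entries of Lmna cover different spans of the gene. Which annotated transcript each entry corresponds to was not given in the sources used here. Lmnb1, a gene of 45612 bp on chromosome 18, and Lmnb2, of 17043 bp on chromosome 10, each had 1 entry.

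The LEM domain genes spanned the whole range of the group. Tmpo encodes the lamina-associated polypeptides LAP2, which bind lamins and the chromatin protein BAF, and it had the highest activity of the 10 genes by its median or highest entry, but not by its lowest, which lay below Lmna. Its entries were listed at 23.24 RPKmM (NM_001283048), 22.52 (NM_001080129) and 5.55 (NM_011605). Only 169 of the other active entries exceeded the first, and 1106 exceeded the last. Emd, which encodes emerin, had 2.93 (NM_007927). Lemd3, which encodes MAN1, a binding partner of receptor-regulated Smads, had 2.51 (NM_001081193). Lemd2, whose product takes part in sealing the nuclear envelope after mitosis, had 1.84 (NM_146075). The latter 3 genes thus formed a narrow range, with Emd at 1.59 times Lemd2, and the median entry of Tmpo was 7.69 times Emd and 8.97 times Lemd3. These ratios depend on the entry, as the lowest entry of Tmpo was 1.89 times Emd and 2.21 times Lemd3.

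The entries of Tmpo differed by 4.19 times, those of Lmna by 1.38 and those of Sun1 by 1.36. To read these values, the ratio of the highest to the lowest active entry was computed for the 2270 other genes with several active entries at 0.01 or higher. Its median was 1.10 and its upper quartile 1.41, and a ratio at least as large as that of Tmpo was found in 47 genes (2.07%), as that of Lmna in 607 (26.7%) and as that of Sun1 in 630 (27.8%). The spread of Tmpo was thus at the far end of this distribution, and those of Lmna and Sun1 lay below its upper quartile. Genes were not matched for their number of entries, although such a ratio can only grow as entries are added. The 7 coding transcripts of Tmpo in GENCODE vM1, between 90610316 and 90634759 of chromosome 10 (mm9, minus strand), fall into 4 different spans, and the shortest covers 11166 bp against 24012 for the longest. The part of these spans in the difference between entries was not tested.

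**Figure D3:**
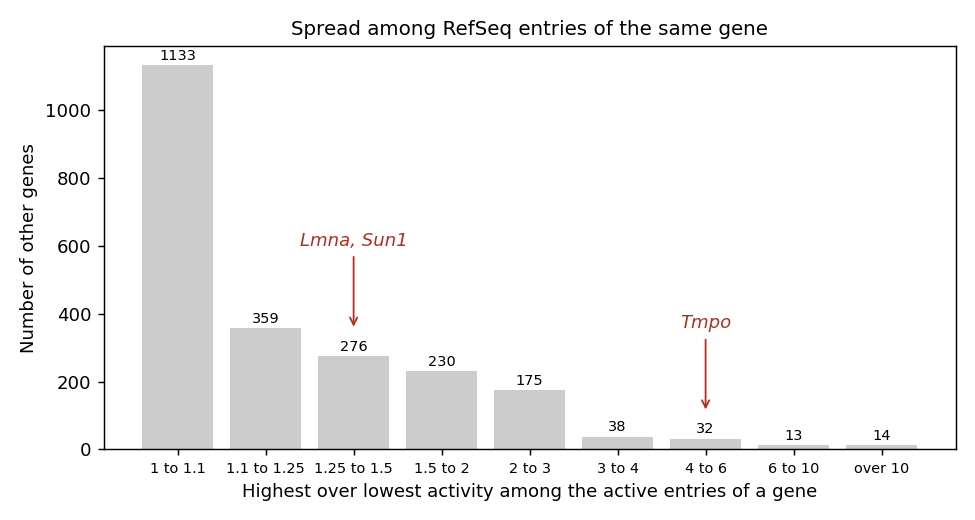
Number of other genes by the ratio of their highest to their lowest active entry, for 2270 genes with several active entries. Arrows mark the intervals that hold Lmna (1.38), Sun1 (1.36) and Tmpo (4.19), and the fullest interval is the lowest, with 1133 genes below 1.1.

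Lbr encodes a membrane protein that binds B-type lamins and heterochromatin at one end and has sterol reductase activity in its membrane part. Its activity was 2.10 RPKmM (NM_133815), above 76.5% of the other active entries and next to last in the group. The related sterol reductase genes Dhcr7 and Tm7sf2 had 0.89 and 0.26.

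Of the SUN genes, Sun2 had 5.43 RPKmM (NM_001205345), the highest value after Tmpo and Lmna. Sun1 was listed at 3.88 (NM_001256116) and 2.86 (NM_001256115), so that both of its entries lay below Sun2, and Sun2 was 1.61 times the median of Sun1. The other SUN genes on the list, Sun3, Spag4 and Sun5, known mainly from the testis, were all inactive.

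In order of the median entry, the genes ran from Tmpo (22.5 RPKmM) and Lmna (15.7) through Sun2 (5.43), Lmnb1 (4.68), Lmnb2 (4.42), Sun1 (3.37), Emd (2.93), Lemd3 (2.51) and Lbr (2.10) to Lemd2 (1.84). The widest step was that of 2.90 times between Lmna and Sun2, and each later gene was between 1.06 and 1.31 times its follower. With 1 pooled value per entry, the order among these later neighbours is not established. Tmpo and Lmna cannot be ordered firmly either, since the lowest entry of Tmpo lay below all entries of Lmna.

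Gene length, taken over the whole annotated gene and not for each entry, differs widely within the group, from 6862 bp for Emd to 55920 bp for Lemd3. The values were therefore also set against active entries of genes from 1.5 times shorter to 1.5 times longer by GENCODE vM1. The median entry of Tmpo lay above 99.2% of 3906 such entries and that of Lmna above 98.6% of 3845. The lowest positions were again those of Lemd2, above 70.7%, and Lbr, above 74.5%, and each of the 10 genes remained above the median of its length class, which was 0.810 to 1.06 RPKmM.

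RefSeq promoters were found for 8 of the 10 genes, 12 promoters in all, and none for Lmnb1 and Lemd2. CCAAT was present in 8 of the 12, against 33.8% of all 32851 promoters and 35.0% of the promoters of active genes. GGGCGG was also present in 8, against 32.7% of all promoters and 55.5% of those of active genes. TATAAA was found in 1 of the 12, a 2nd promoter of Sun1, against 12.4% of all promoters and 6.75% of those of active genes. Neither CAGCTG nor CACGTG occurred in any of the 12, against 13.0% and 6.02% of all promoters and 12.5% and 7.95% of those of active genes. All motifs were sought on both strands of the 250 bases, and in that Sun1 promoter TATAAA overlaps a CCAAT match. The CpG ratio of the first promoter listed was between 0.751 and 1.05 for each gene except Lmna. It was also low in the 2nd promoters of Sun1 (0.0842) and Lmnb2 (0.238), but 1.21 in that of Tmpo, and the median over promoters of active genes was 0.697. A match says only that the letters are there, and several genes have more than 1 of the 12 promoters.

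No protein-coding gene of GENCODE vM1 overlaps any of the 10 genes. Sense overlaps were limited to short features, namely a pseudogene of 343 bp in Emd, an annotated 5S rRNA of 116 bp in Lbr and a miRNA gene of 125 bp in Lemd3, and the authors discarded reads at rRNA repeats. Annotated noncoding genes lie on the opposite strand within Tmpo, Lemd2, Lemd3 and Sun2, and only sense reads were counted. Emd, on the plus strand of the X chromosome from 71500026 to 71506887, has Flna 4866 bp upstream on the opposite strand. Flna encodes the actin crosslinker filamin A and had an activity of 100.2 RPKmM, against 2.93 for Emd. Upstream on the same strand, the nearest protein-coding genes of Sun1 and Sun2 were Dnaaf5, at 1.63 RPKmM and 14126 bp away, and Dnal4, at 0.850 and 18916 bp away, both less active than the SUN genes themselves. Those of Lmnb1 and Lemd2, Tex43 and Grm4, were inactive and 113030 and 217948 bp away, and that of Lbr, Gm5533, lies 9206 bp away and was not matched to an entry of the table.

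Genes that act on or with the lamina were compared as lists, of which each gene is represented by the median of its active entries. All 5 genes of prelamin processing were active: the farnesyltransferase subunits Fnta (1.71 RPKmM) and Fntb (0.72), the proteases Rce1 (4.19) and Zmpste24 (2.05), and the methyltransferase Icmt (1.69). Their median of 1.71 lay below the activity of each of the 3 lamin genes. Banf1, which encodes BAF, the chromatin protein bound by LEM domains, had 7.99, or 2.73 times Emd. The BAF kinase gene Vrk1 had 1.13, and the LEM domain genes Ankle2 and Ankle1 had 2.76 and 0.99. Lemd1 was at 0.01 by 1 entry and inactive by the other, in contrast to Lemd2 and Lemd3.

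The 4 nesprin genes, which encode the partners of SUN proteins, had lower values than Sun1 and Sun2 without exception. Syne3 had 1.42 RPKmM, Syne2 had 1.30, Syne4 had 0.07, and Syne1 was listed at 0.72 and 0.89 and as inactive for a further entry. Of 8 further genes of the envelope and nuclear periphery, all were active with a median of 3.46. Tmem43, which encodes the emerin partner LUMA, had 14.3 and the nuclear matrix gene Matr3 had 12.1, both below the median entry of Lmna. The torsin genes Tor1a and Tor1b had 3.93 and 2.99, their cofactor genes Tor1aip2 and Tor1aip1 had 4.89 and 2.50, and Nrm and Tmem201 were lowest at 0.88 and 0.49. Among chromatin and other partners, the HP1 genes Cbx5, Cbx1 and Cbx3 had 13.2, 3.39 and 1.42, Hdac3 had 1.08, Prr14 had 0.90, Rb1 had 0.80 and Chmp7 had 0.46, and Mlip, a muscle gene whose product binds lamin A, was inactive. As a larger comparison, all 30 nuclear pore genes on the list were active, with a median of 2.16 and a range from 0.01 for Nup210 to 15.6 for Tpr. The median of the 10 lamina genes was 3.90, and the ranges overlapped widely. An activity of 1 or more, found in all 10 lamina genes, was also reached by 26 of the 30 pore genes. It was reached by 6 of the 8 further genes of the envelope and periphery. In these lists 27 and 7 genes lay above the median of the other active entries.

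**Figure D4:**
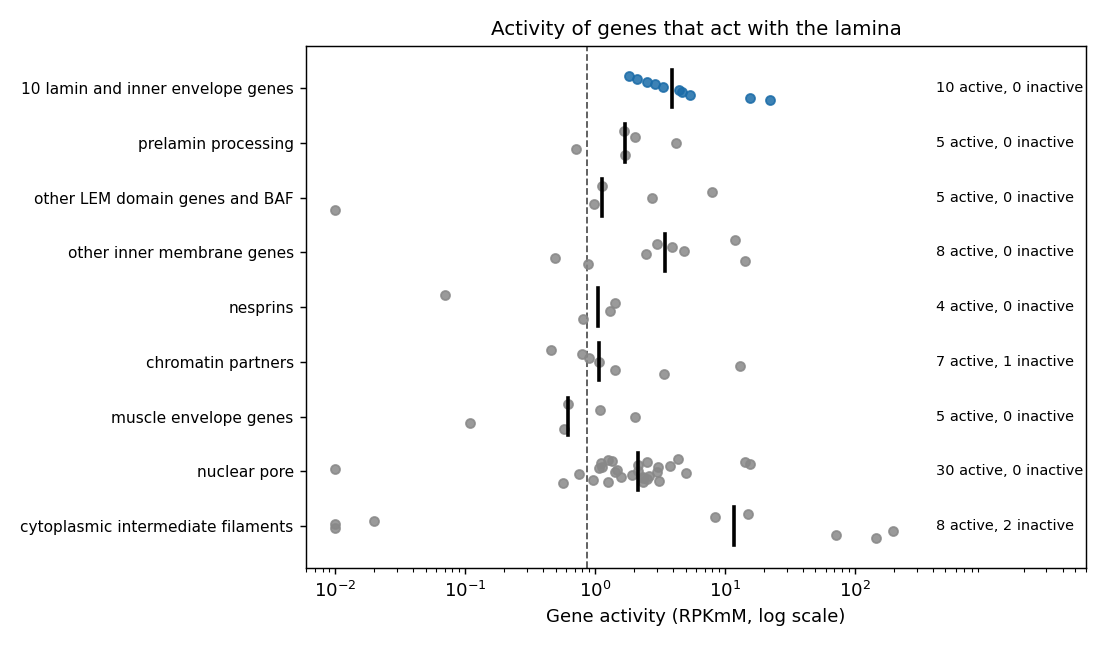
Gene activity in RPKmM on a log scale, 1 point per active gene (median of its active entries), for the 10 lamina genes (blue) and lists of genes that act with them (grey). Black bars are medians over active genes, the dashed line is the median of the other active entries, inactive genes are counted at the right, and the vertical offset of points has no meaning.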

How the data were processed

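The measurement was GRO-seq of C2C12 myoblasts in 2 libraries. Per the labels, CASAVA 1.8 and Bowtie2 were used with genome build mm9. The authors shortened and realigned reads that failed to map, used unique alignments outside rRNA and tRNA repeats, combined both libraries, and deposited RPKM values over mappable bases of the gene body (RPKmM), printed to 2 decimals, and wrote Inactive for entries not above the background of gene deserts. Of the 24165 entries, 7208 hold this word, so the unit was read from the column name and the methods and was not checked automatically. Pooling hides the variation between libraries, and multiply mapped reads are lost. The study gives a pooled depth and a correlation between the libraries over genomic windows, which are not in the deposited table and were not used here.

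The members and gene lists were chosen with earlier results of these data known. Counts, medians, ratios and the share of other active entries of lower activity were computed with Python 3.11.15, numpy 2.4.6 and pandas 2.3.3, and figures were drawn with matplotlib 3.10.9. The calculations of shares and motif matches were tested on simulated data. No p-value was computed, since entries are not replicates. Gene length, position and neighbours are from GENCODE vM1 on NCBIM37 (mm9), which matched 17578 of 20128 gene symbols, and promoters are from RefSeq on GRCm38.p6, whose coordinates were not mixed with those of mm9. The genes named are the members, all genes of lists of up to 8 genes, the extremes and inactive genes of longer lists, cell type markers, and neighbouring genes, of which those with values that bear on a member are given. Vim, Prph, Nefl and Nefm fall outside this rule and were added once their values had been seen. Alternatives were 1 entry per gene symbol, no X chromosome, genes of at least 10 kb, another reference set, geometric means with a pseudocount of 0.01, and values moved by 0.005 for rounding. A value was taken as moved where it changed by more than 1.5 times.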

Additional observations from a re-analysis of the deposited data

How the results depend on the processing

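Of 27 alternative values chosen at the outset, 25 lay within 1.5 times the value given and none changed direction. Several of the 25 could not have moved, so this tally does not measure stability. Lmnb1 and Lmnb2 have 1 entry each, so the choice of entry could not alter their ratio. Shifts for rounding were too small to change any ratio by 1.5 times. The numbers of active entries, 10 or 14 against 15, only restate how many entries were kept. Both values outside 1.5 times concern the ratio of the median of the lamina entries to that of the other active entries, 5.38. It was 15.1 when inactive entries were included in the reference at 0, and 9.70 with geometric means and a pseudocount of 0.01, as both give more weight to entries of low activity. Over the other alternatives for that ratio it ran from 4.43, with the least active entry of each gene symbol, to 5.62, without the X chromosome. The ratio of Lmna to Lmnb1 ran from 2.98 to 4.12, that of Lmna to Lmnb2 from 3.16 to 4.36 and that of Sun2 to Sun1 from 1.40 to 1.90, depending on the entry used. For Tmpo the choice of entry, an alternative added after seeing the data, mattered more. Its ratio to Emd was 7.69 by the median entry, 7.93 by the most active and 1.89 by the least active, and its ratio to Lemd3 was 8.97, 9.26 and 2.21. No paired analysis was possible because the table holds 1 pooled value per entry and the study has a single group, and for the same reason no replicate could be left out. Depth was not used to set limits on any value, since the table holds neither it nor the mappable lengths.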

Other observations

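The lamins are the nuclear members of the intermediate filament family. The 10 cytoplasmic filament genes on the list, which left out keratins, spanned a wider range than the 3 lamin genes, as a longer list may. Nes (nestin) had 198.2 RPKmM, Vim (vimentin) 146.1 and Des (desmin, the filament of muscle) 72.5, which are 12.6, 9.29 and 4.61 times the median entry of Lmna. Of the neurofilament genes, Nefm and Nefl had 15.1 and 8.43, against 15.7 for Lmna and 4.68 for Lmnb1, while Nefh and Ina were inactive. Synm and Gfap were at 0.01 and Prph at 0.02, with a further Gfap entry inactive. The 3 lamin genes, from 4.42 to 15.7, lay between these extremes.

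5 genes of the envelope that were listed for their roles in muscle or other differentiated tissue were all active, with a median of 0.62, and 2 of them, Wfs1 and Tmem120a, lay above the median of the other active entries (0.870). Plpp7 had 0.11, Tmem38a 0.58, Tmem120b 0.62, Tmem120a 1.10 and Wfs1 2.04, so that only Wfs1 exceeded Lemd2, the lowest of the 10 lamina genes at 1.84.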
